A study of Salmo salar with 6 samples.

Results

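Genes of pre-mRNA splicing and of the related RNA helicases were followed in the head kidney (HK) of Atlantic salmon (Salmo salar) on 6 one-color Agilent arrays. A gene belonged to the set when its symbol started with snrp, snrnp, srsf, sf3a, sf3b, prpf, hnrnp, u2af, srrm, puf60 or sart, or with lsm, ddx, dhx, rbm, cwc or clk and a number. The viral RNA sensors ddx58 and dhx58 were left out. The symbol of a probe was found by the RefSeq accession in its name, and no measured value entered the choice. This gave 80 genes on 81 probes of 8072 genes with a symbol; clk4a alone had more than 1 probe. After probes near background were removed, 71 genes on 72 probes remained, of 5909 genes with a symbol and 25826 probes in all.

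The fish were unvaccinated juveniles. One group was fed a control diet and the other the same kind of diet with 0.15% AQUOLIVE®, an extract of olive fruit, and both were sampled at day 133 of feeding. Each diet was measured on 3 arrays, and each array held the pooled HK RNA of 6 fish, 1 from each of the 6 tanks of that diet, 18 fish per diet. The spread between arrays is therefore a spread between pools, in which differences between single fish are averaged.

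Before an mRNA leaves the nucleus, the spliceosome removes its introns. The U1 small nuclear ribonucleoprotein (snRNP) recognizes the start of the intron and the U2 snRNP its branch point, then the U4/U6.U5 tri-snRNP joins and the catalytic center forms. SR proteins and hnRNP proteins bind the transcript and steer which sites are used, and helicases of the DEAD-box and DEAH-box families use ATP to open RNA duplexes at each step. Many other helicases of these families act on ribosomal RNA in the nucleolus or on translation, and several proteins of the RNA-binding motif (RBM) family act outside splicing. The HK of bony fish takes the place of bone marrow: precursors of white and red blood cells divide there, beside lymphocytes.

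No splicing or helicase gene passed the adjusted test between the diets, and most differences were small. All log2 values below are normalized log2 signals, and the log2 fold change (FC) is the mean of the 3 AQUOLIVE® pools minus the mean of the 3 control pools. Where 3 values are listed for a diet, they stand for its pools 1, 2 and 3 in that order. The mean was higher in the AQUOLIVE® pools for 36 probes and lower for 36. The median log2 FC was -0.004, against a median of -0.02 over all kept probes. The median absolute log2 FC was 0.31 in the set, 0.44 over all kept probes and 0.38 over the 5961 kept probes with a gene symbol. An absolute log2 FC under 0.5 was measured for 76.4% of the set's probes and for 55.1% of all kept probes. The set's probes were more often bright, since 90.3% of them lay well above background on all 6 arrays, against 64.5% of all kept probes and 76.3% of those with a symbol. Among such bright probes the median absolute log2 FC was 0.31 in the set, 0.35 over all and 0.33 over those with a symbol. Their share with an absolute log2 FC under 0.5 was 83.1% in the set, 64.7% over all and 69.2% over those with a symbol. After normexp background correction, over all kept probes, the median absolute log2 FC was 0.25 in the set and 0.26 over all.

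None of the 72 probes passed limma's test after Benjamini-Hochberg adjustment over all kept probes, a threshold that 0.0155% of all kept probes passed. At an unadjusted p under 0.05, 1 probe was higher in the AQUOLIVE® pools, lsm10, beside 9.56% of all kept probes. In the other direction 1 probe was lower, ddx56, beside 8.58% of all kept probes. Both directions together make 2 of 72, or 2.78%, where 18.1% of all kept probes and 14.2% of those with a symbol passed. Neither gene is a core component of the spliceosome: LSM10 is known in mammals as a ring protein of the U7 snRNP, which processes the ends of histone mRNA, and DDX56 as a nucleolar helicase of large ribosomal subunit assembly. The same threshold in the methods' t-test picked 6 probes, or 8.33%, where it picked 15.8% of all kept probes. Of these 4 (ddx41, lsm10, rbm8a and sf3a1) were higher in the AQUOLIVE® pools, beside 8.1% of all kept probes, and 2 (ddx52 and hnrnpul1l) lower, beside 7.66%. None passed that test after Benjamini-Hochberg adjustment, nor did any of the kept probes (0%). An absolute log2 FC of at least 0.8 was reached by 3 probes of the set, those of ddx56, lsm10 and sf3b6, and by 25.6% of all kept probes. With this minimum added to the t-test, lsm10 alone was left, beside 9.05% of all kept probes. With 3 pools against 3, an exact two-sided permutation test of a single gene cannot give a p below 0.1.

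**Figure D1:**
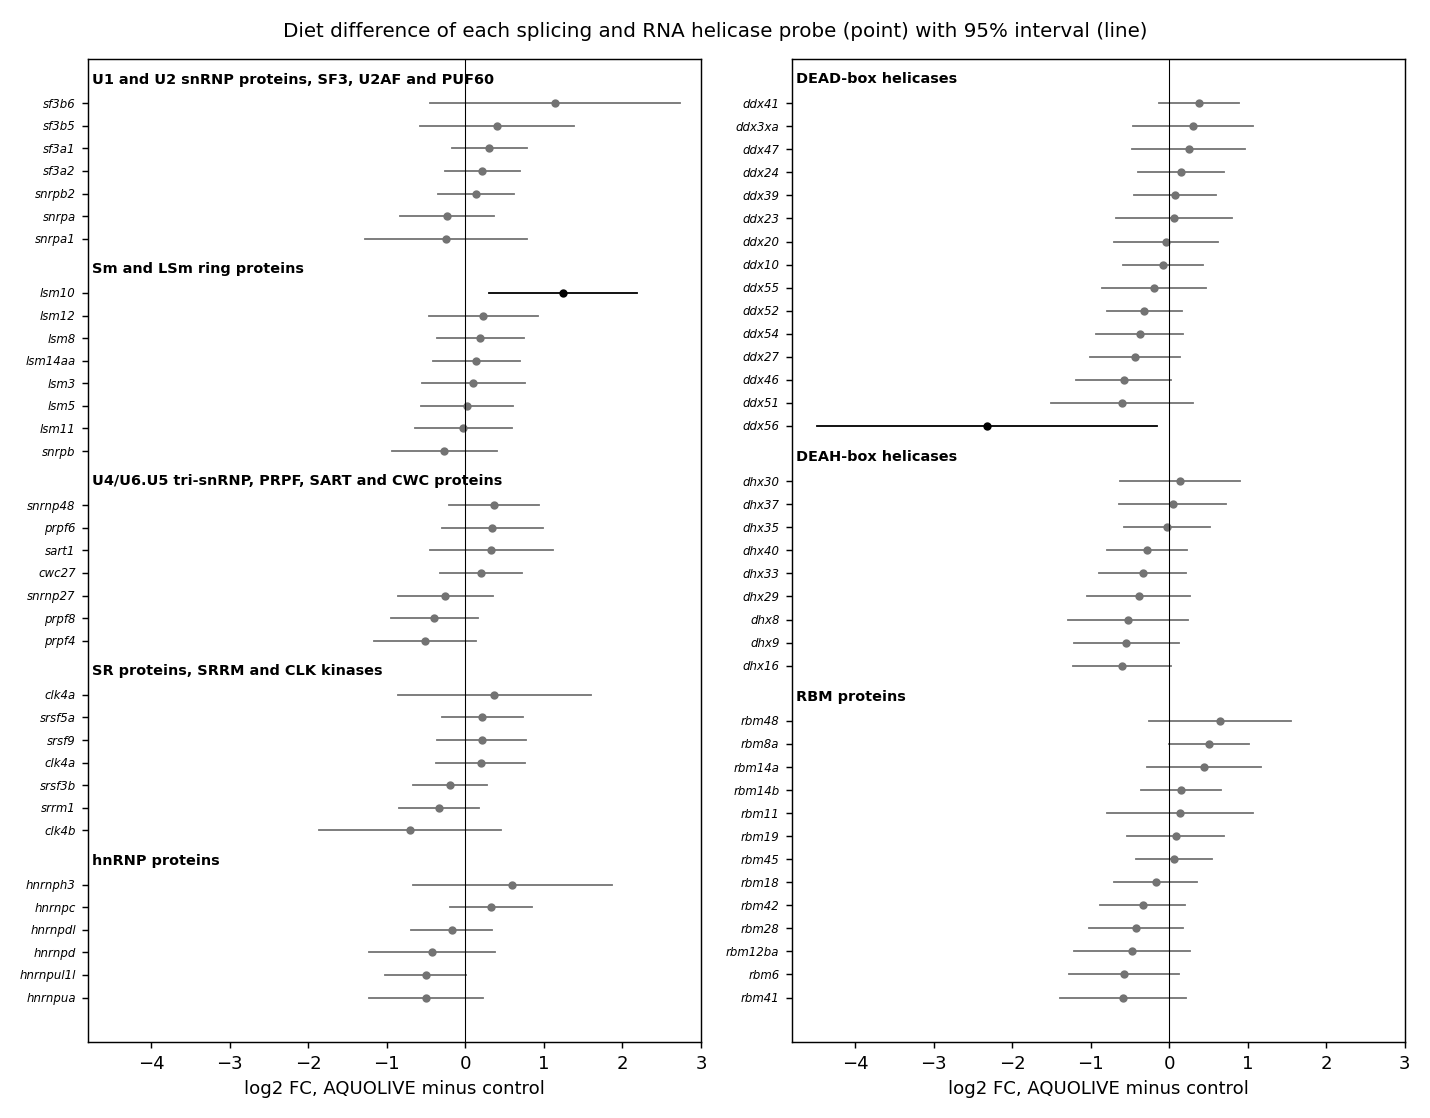
Log2 FC between the diets (x axis, AQUOLIVE® minus control) for each of the 72 kept probes, by group; points are estimates and lines the 95% limma intervals, black where the unadjusted p was under 0.05. The intervals of lsm10 and ddx56 alone leave out 0, and 43 of the 72 intervals lie wholly between -1 and 1.

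The intervals show how large a difference the arrays could have missed. For 43 of the 72 probes, or 59.7%, the 95% interval lay wholly within 1 log2 unit of 0, as it did for 32.2% of all kept probes. For the remaining 29 probes a change of 1 log2 unit in at least one direction stayed within the interval. In bulk RNA of the whole HK, fewer cells of a type and less RNA per cell cannot be told apart.

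The genes that recognize the intron came first. Of the 7 kept probes for U1 and U2 snRNP proteins and SF3 subunits, 5 were higher in the AQUOLIVE® pools and 2 were lower. Their median log2 FC was 0.21. The sf3a1 gene, a subunit of the U2 snRNP that helps it bind the branch point, measured 12.03, 11.85 and 12.04 under the control diet, compared with 12.16, 12.27 and 12.41 under AQUOLIVE®. Every AQUOLIVE® pool was above every control pool, but the distance was small, with a log2 FC of 0.30 (95% interval -0.18 to 0.78, limma adjusted p = 0.423). Its partner sf3a2 had the same order, with 9.98 to 10.23 in the control pools and 10.25 to 10.44 in the AQUOLIVE® pools.

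The sf3b6 gene codes for a small SF3B protein that contacts the branch-point adenosine. Its signal was 10.95, 10.54 and 8.48 in the control pools and 11.54, 10.97 and 10.89 under AQUOLIVE®. The log2 FC of 1.14 (95% interval -0.45 to 2.73) was the second largest positive value of the set, and it rested on control pool 3, which lay more than 2 log2 units below the other 2 control pools. Without that pool the log2 FC was 0.37. The same pool was the low one for sf3b5, another SF3B subunit, at 10.80 against 12.06 and 12.15 in control pools 1 and 2, and 11.88 to 12.31 in the AQUOLIVE® pools. The U1 protein snrpa had a log2 FC of -0.23 and the U2 proteins snrpa1 and snrpb2 values of -0.25 and 0.13, all with overlapping diets.

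Many Sm and LSm proteins form rings of 7 subunits around small RNAs. In this group 6 of 8 probes were higher and 2 lower (median log2 FC 0.12), and lsm10 stood apart from the rest. The group was formed by symbol and not by a place in a ring. Its higher probes included lsm12 and lsm14aa, with log2 FC of 0.23 and 0.14. The lsm10 probe (Ssa#NM_001146481.1) measured 4.71, 5.85 and 4.79 under the control diet, compared with 5.91, 6.57 and 6.61 under AQUOLIVE®. The diets did not overlap, although control pool 2 and AQUOLIVE® pool 1 lay only 0.06 log2 units apart. The log2 FC was 1.25 (SE 0.39, 95% interval 0.30 to 2.19, unadjusted p = 0.0175, limma adjusted p = 0.199), a 2.37-fold higher mean signal in the AQUOLIVE® pools. This was a dim probe, well above background on 2 of the 3 control arrays and on 3 of 3 AQUOLIVE® arrays. Without control pool 3, without AQUOLIVE® pool 2 or without AQUOLIVE® pool 3 its unadjusted p was above 0.05, and its log2 FC was 0.49 after normexp background correction.

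LSM11 is the other LSm protein particular to the U7 ring in mammals. The lsm11 probe measured 5.34, 4.90 and 5.32 in the control pools and 4.82, 5.36 and 5.29 under AQUOLIVE®, for a log2 FC of -0.03 (95% interval -0.64 to 0.59). It was dim as well, well above background on 2 of the 3 control arrays and on 3 of 3 AQUOLIVE® arrays. The difference between the log2 FC of the 2 genes was not tested. The U6 ring subunits lsm3, lsm5 and lsm8 had log2 FC of 0.10, 0.02 and 0.19. For lsm8, the subunit that marks the nuclear ring, the AQUOLIVE® pools lay between 12.58 and 12.62 and inside the control range of 12.10 to 12.69. The core Sm protein gene snrpb had a log2 FC of -0.27 (95% interval -0.93 to 0.40).

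Proteins of the tri-snRNP and of later steps were split, with 4 of 7 probes higher and 3 lower (median log2 FC 0.20, and 0.04 without control pool 3). PRPF8 is the large protein at the center of the spliceosome. The prpf8 probe measured 12.60, 12.19 and 12.75 in the control pools and 12.02, 12.21 and 12.13 under AQUOLIVE®, for a log2 FC of -0.40 (95% interval -0.95 to 0.16, limma adjusted p = 0.383). Control pool 2 lay within the range of the AQUOLIVE® pools, so the diets overlapped. For prpf4, a U4/U6 protein, every control pool (10.98 to 11.73) was above every AQUOLIVE® pool (10.63 to 10.81), with a log2 FC of -0.51 (95% interval -1.16 to 0.14). The gene prpf6, which bridges the U5 and U4/U6 particles, had the other sign at 0.34, as did sart1, needed for tri-snRNP recruitment, at 0.33. In snrnp48, a protein of the minor spliceosome, the control pools spanned 6.70 to 7.26 and the AQUOLIVE® pools 7.21 to 7.40.

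Among SR proteins, SRRM proteins and CLK kinases, which phosphorylate SR proteins, 4 of 7 probes were higher and 3 lower (median log2 FC 0.20). The general SR proteins srsf3b, srsf5a and srsf9 had log2 FC of -0.19, 0.21 and 0.21. The SR-related matrix protein srrm1 measured 12.52, 12.74 and 12.95 in the control pools and 12.42, 12.32 and 12.46 in the AQUOLIVE® pools; the diets did not overlap, with a log2 FC of -0.34 (95% interval -0.85 to 0.17).

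The kinase gene clk4a was read by 2 probes that agreed in sign and not in spread. One (Ssa#NM_001140055.1) measured 10.66, 10.74 and 8.92 under the control diet and 10.39 to 10.54 under AQUOLIVE®, for a log2 FC of 0.37 (95% interval -0.86 to 1.60). The other gave 10.09, 10.41 and 9.85 in the control pools and a log2 FC of 0.20 (95% interval -0.37 to 0.76). Control pool 3 was low on both, by more than 1.4 log2 units below every other pool on the first and by less than 0.3 below the next lowest on the second. Its gene copy clk4b was dim, well above background on 1 of 3 AQUOLIVE® arrays, with 4.86, 4.94 and 5.81 in the control pools and 3.58, 5.04 and 4.89 under AQUOLIVE®. The log2 FC of clk4b was -0.70 (95% interval -1.86 to 0.46), opposite in sign to clk4a, and the diets overlapped for all 3 probes.

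The hnRNP group had 2 probes higher and 4 lower in the AQUOLIVE® pools, and a median log2 FC of -0.30. For hnrnpul1l, related to the nuclear matrix protein hnRNP U, the values were 12.25, 11.94 and 12.07 in the control pools and 11.39, 11.72 and 11.65 in the AQUOLIVE® pools. The diets did not overlap, and the log2 FC of -0.50 had a 95% interval of -1.02 to 0.01 and a limma adjusted p of 0.283. The probe for hnrnpua, the salmon gene named after hnRNP U itself, had the same log2 FC of -0.50, but its control pools reached from 4.51 to 5.54 and overlapped the AQUOLIVE® pools at 4.46 to 4.60. It was a dim probe, well above background on 2 of the 3 arrays of each diet. The abundant pre-mRNA packaging protein hnrnpc was higher by 0.32 (95% interval -0.20 to 0.85) with overlap. For hnrnph3 and hnrnpd, control pool 3 again stood apart, low at 6.38 against 8.13 and 8.19 for hnrnph3 and high at 8.21 against 7.21 and 7.18 for hnrnpd.

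**Figure D2:**
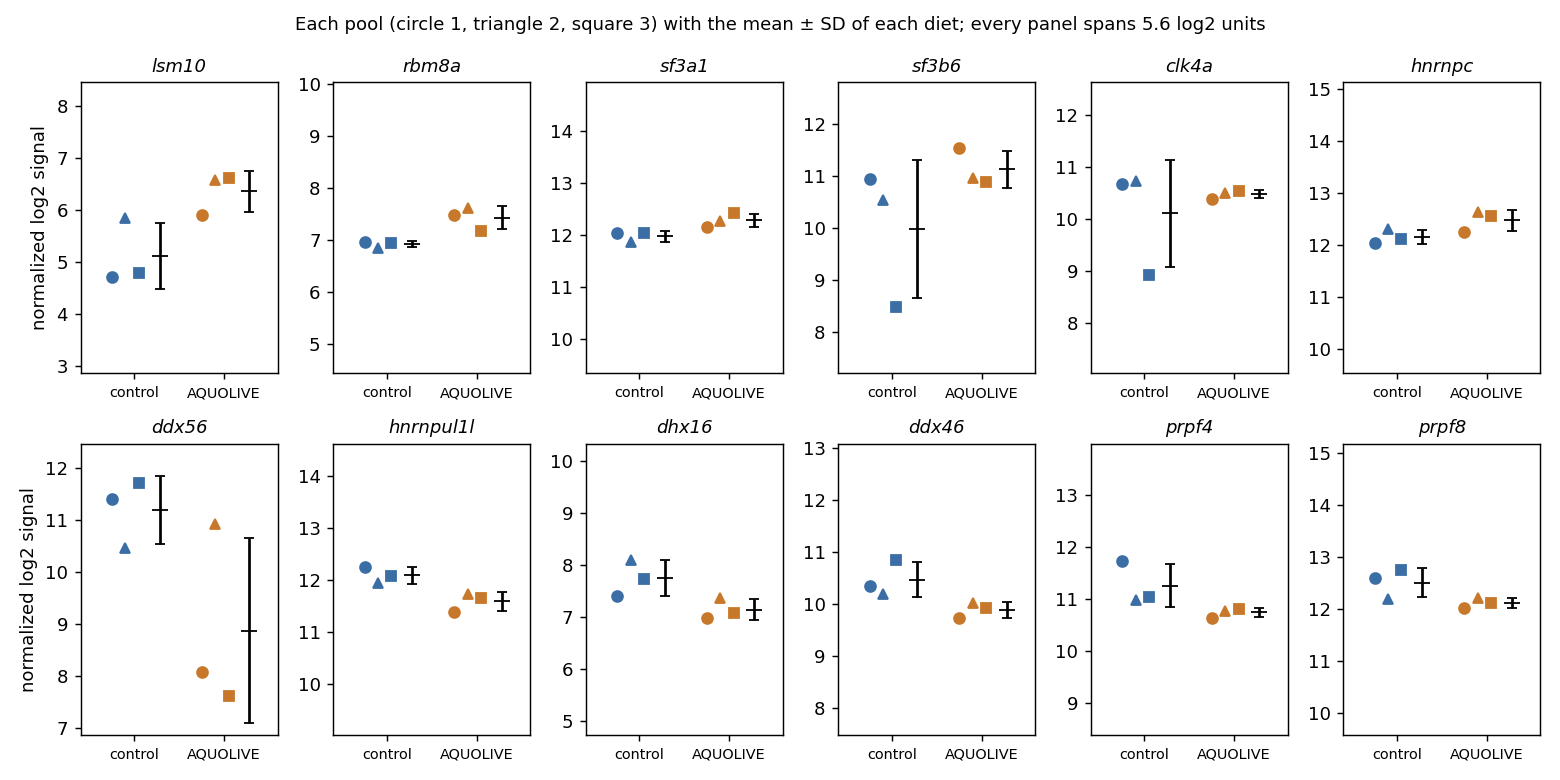
Normalized log2 signal (y axis) of 12 genes in each pool, with the mean ± SD of the 3 pools of a diet beside the points; clk4a is the brighter of its probes. For sf3b6 and clk4a the control SD comes from pool 3, at 8.48 and 8.92, and for ddx56 AQUOLIVE® pool 2 lies among the control pools at 10.92.

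The DEAD-box helicases held the lowest log2 FC of the set. Of 15 kept probes 6 were higher and 9 lower (median log2 FC -0.08). The ddx56 probe (Ssa#XM_014128153.1) measured 11.40, 10.46 and 11.71 in the control pools and 8.08, 10.92 and 7.62 under AQUOLIVE®. AQUOLIVE® pools 1 and 3 lay more than 2 log2 units below every control pool, whereas AQUOLIVE® pool 2 lay within the control range, so the diets overlapped. The log2 FC was -2.32 (SE 0.89, 95% interval -4.48 to -0.15, unadjusted p = 0.0393, limma adjusted p = 0.257), with an SD of 1.79 among the AQUOLIVE® pools and 0.65 among the control pools. The unadjusted p passed 0.05 after quantile and 75th percentile scaling too. With single pools left out the log2 FC ran from -3.34, without AQUOLIVE® pool 2, to -1.69, without AQUOLIVE® pool 3. The p did not pass without control pool 1, control pool 3, AQUOLIVE® pool 1 or AQUOLIVE® pool 3, nor after normexp background correction.

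Such a split, with AQUOLIVE® pools 1 and 3 both at least 2 log2 units below the other 4 arrays, was rare on the array. It was found for 144 of the 25230 probes measured on every array, or 0.571%, and the opposite split for 20 probes. This count was chosen after the values of ddx56 had been seen.

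Several other DEAD-box genes lay lower by less and without overlap in the fit reported here. DDX46 is the helicase that helps the U2 snRNP onto the branch point. The ddx46 probe measured 10.36, 10.20 and 10.85 in the control pools and 9.73, 10.02 and 9.93 in the AQUOLIVE® pools, without overlap, for a log2 FC of -0.58 (95% interval -1.18 to 0.03, limma adjusted p = 0.287). The diets did not overlap either for ddx27, ddx52 and ddx54, helicases of ribosome assembly, with log2 FC of -0.44, -0.31 and -0.38. The gaps between the diets were narrow, at 0.06, 0.10 and 0.04 log2 units. For ddx27, ddx46, ddx52 and ddx54 the diets overlapped after 75th percentile scaling and after normexp background correction. After quantile normalization ddx46, ddx52 and ddx54 stayed without overlap. On the other side ddx41, a helicase that joins the spliceosome around catalysis, measured 9.28, 9.47 and 9.04 in the control pools and 9.57, 9.70 and 9.67 under AQUOLIVE®, for a log2 FC of 0.38 (95% interval -0.13 to 0.89). DDX23, the helicase that releases U1, and the translation helicase ddx3xa overlapped between the diets, with log2 FC of 0.06 and 0.30.

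DEAH-box helicases leaned most to one side, with 2 probes higher and 7 lower and a median log2 FC of -0.34. For dhx16, which drives the step into catalysis, the control pools measured 7.39, 8.08 and 7.73 and the AQUOLIVE® pools 6.97, 7.36 and 7.08. The diets did not overlap, though control pool 1 and AQUOLIVE® pool 2 were only 0.04 log2 units apart, and the log2 FC was -0.60 (95% interval -1.23 to 0.02, limma adjusted p = 0.286). The helicase dhx8, which releases the spliced mRNA, was separated too, with 10.74 to 11.73 in the control pools and 10.45 to 10.72 in the AQUOLIVE® pools. The same held for dhx29, a helicase of translation initiation, and dhx40, with log2 FC of -0.39 and -0.28. The gaps between the diets were 0.02 log2 units for dhx8, 0.04 for dhx29 and 0.07 for dhx40. After 75th percentile scaling, quantile normalization or normexp background correction the diets overlapped for dhx29 and dhx40. They also overlapped for dhx8 after 75th percentile scaling and for dhx16 after normexp. For dhx9 the spot of control pool 3 was marked as an outlier and dropped, and the log2 FC of -0.55 (95% interval -1.22 to 0.12) compares 2 control pools with 3.

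After each normalization that was tried, 6 to 9 of the 9 DEAH-box probes were lower. In the deposited log2 values, which carry no scaling, the median of all kept probes moved to 0.98. All 9 lay below that median, as did 46 of the 72 probes of the set and 12 of the 15 DEAD-box probes. None of the 9 passed an unadjusted p under 0.05 in the fit reported here; dhx9 did with outlier spots kept and without control pool 3, and dhx16 without control pool 1. Without control pool 3 the median of the group was -0.15 in place of -0.34. This group had 8 probes measured on every array. Their median deviation from the mean of the control pools was 0.29 log2 units in control pool 3, the highest of the control pools. Control pools 1 and 2 lay at -0.19 and -0.18. The AQUOLIVE® pools lay at -0.46, -0.15 and -0.31, so AQUOLIVE® pool 2 was above control pools 1 and 2.

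Split by known role rather than by family, 6 helicases were listed as spliceosomal, ddx23, ddx41, ddx46, dhx8, dhx16 and dhx35. Their median log2 FC was -0.27, with 2 higher and 4 lower. It was 3 higher and 3 lower among probes well above background on all 6 arrays and without AQUOLIVE® pool 1. After normexp background correction and without AQUOLIVE® pool 3 it was 1 higher and 5 lower. The kept DEAD-box gene ddx39, with a log2 FC of 0.08, was not on this list. The 11 kept helicases of ribosome assembly, ddx10, ddx24, ddx27, ddx47, ddx51, ddx52, ddx54, ddx55, ddx56, dhx33 and dhx37, had a median of -0.31, with 3 higher and 8 lower. Without control pool 3 the second group held 5 higher and 6 lower.

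Of the 13 kept RBM genes 7 were higher and 6 lower (median log2 FC 0.06). RBM8A is a core protein of the exon junction complex, the mark that splicing leaves on mRNA. The rbm8a probe measured 6.97, 6.86 and 6.95 in the control pools and 7.49, 7.63 and 7.19 in the AQUOLIVE® pools. Every AQUOLIVE® pool was above every control pool and the control pools were close together (SD 0.06), with a log2 FC of 0.51 (95% interval -0.001 to 1.02, limma adjusted p = 0.276). In the opposite direction rbm6, rbm12ba, rbm28, rbm41 and rbm42 were lower in all AQUOLIVE® pools than in any control pool, with log2 FC between -0.34 and -0.59. Such an order was found for 15% of all kept probes. The gaps between the diets were 0.15, 0.05, 0.04, 0.12 and 0.01 log2 units, in the same order of genes. Of these genes rbm41 alone stayed without overlap after 75th percentile scaling and after normexp background correction. After quantile normalization rbm6 and rbm41 did. RBM41 is a protein of the minor spliceosome in mammals. The rbm41 probe measured 8.81, 8.97 and 9.93 in the control pools and 8.64, 8.62 and 8.69 in the AQUOLIVE® pools, so control pool 3 carried most of its log2 FC of -0.59 (95% interval -1.39 to 0.22). RBM48, also of the minor spliceosome, had the largest log2 FC of the group at 0.65 (95% interval -0.26 to 1.56); there control pool 3 was the low one, at 7.03 against 8.43 and 7.95, and the AQUOLIVE® pools lay at 8.42 to 8.50. The copies rbm14a and rbm14b had log2 FC of 0.44 and 0.15, with overlap in both.

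Counted over the set, the diets did not overlap for 21 of 71 probes measured on every array, or 29.6%, where 29.7% of all kept probes did not. Of the 21, 5 were higher in the AQUOLIVE® pools (ddx41, lsm10, rbm8a, sf3a1 and sf3a2). They make 7.04% of the 71 probes, beside 14.7% of all kept probes. The other 16 were lower, or 22.5% of the 71, beside 15% of all kept probes. This division depended on the scaling of the arrays. After 75th percentile scaling 5 probes did not overlap, 3 higher (ddx41, lsm10 and rbm8a) and 2 lower (dhx16 and rbm41), whereas 24.8% of all kept probes did not. Quantile normalization gave 15 probes (21.1%), 6 higher and 9 lower, beside 27.2% of all kept probes, 14.8% higher and 12.4% lower. Normexp background correction gave 8 probes (11.3%), 2 higher and 6 lower, beside 19.4% of all kept probes. The unscaled deposited values gave 49 of 70 probes, all of them higher, beside 46.0% of all kept probes, of which nearly all were higher.

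The pools lay closer together under AQUOLIVE® than under the control diet, in the set and over all kept probes. The median SD between pools of the set was 0.30 log2 units in the control group and 0.15 in the AQUOLIVE® group. It was 0.45 and 0.24 over all kept probes and 0.40 and 0.19 over those with a symbol. The SD was not compared among bright probes alone. The control SD was the larger one for 54 of 72 probes, for 71.1% of all kept probes and for 73.6% of those with a symbol. Control pool 3 was the control pool farthest from the other 2 for 40 of 71 probes, or 56.3%, against 48.6% of all kept probes. It lay at least 1 log2 unit below all 5 other arrays for sf3b5, sf3b6, hnrnph3 and a probe of clk4a. These make 5.63% of the set, against 7.26% of all kept probes. It lay as far above them for hnrnpd, or 1.41%, against 4.09% of all kept probes. Among the AQUOLIVE® arrays such a distance occurred for clk4b alone, low in pool 1, as for 1.17% of all kept probes. Within the set AQUOLIVE® pool 1 was the lowest AQUOLIVE® pool for 59.2% of probes, against 42.2% of all kept probes. The part of these arrays in the results above was not tested, apart from the values given without each of them.

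**Figure D3:**
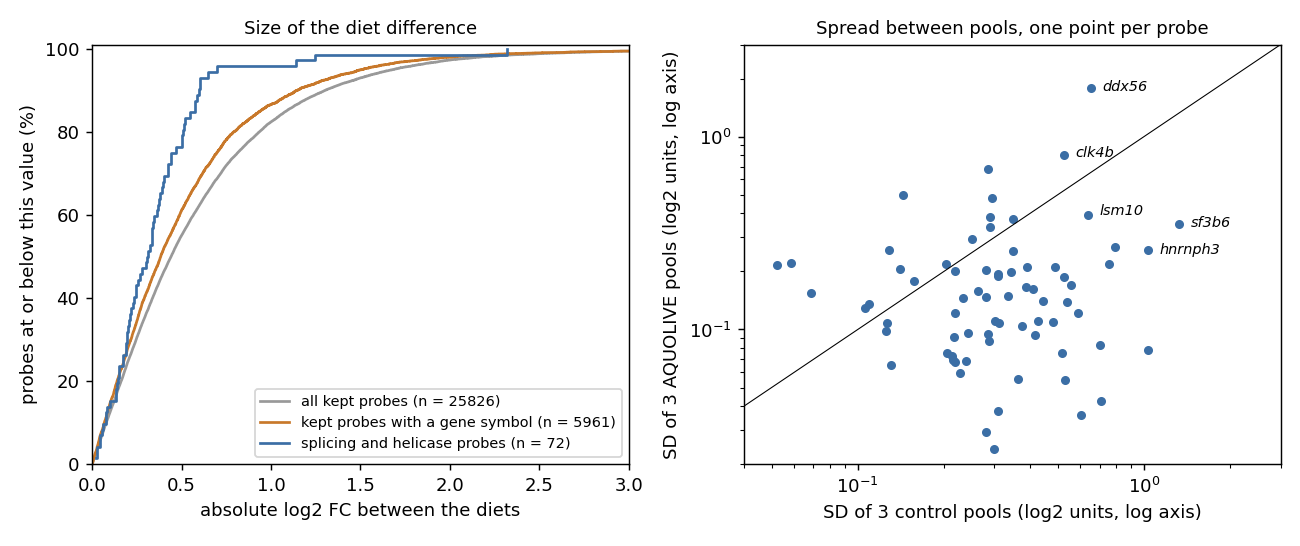
Left, the cumulative share of probes (y axis, percent) by absolute log2 FC between the diets (x axis) for the set, the kept probes with a symbol and all kept probes, where 76.4% of the set and 55.1% of all lie below 0.5. Right, the SD of the 3 AQUOLIVE® pools against the SD of the 3 control pools for each of the 72 probes, both in log2 units on log axes; 54 points lie below the line of equal SD.

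The group medians differed in sign in the fit reported here, and differences between groups were not tested. Over the set the median deviation from the mean of the control pools was 0.02, -0.11 and 0.06 under the control diet, compared with -0.18, -0.06 and 0.05 under AQUOLIVE®. The pools of the diets were interleaved. In the U1 and U2 group the AQUOLIVE® pools lay at 0.18, 0.15 and 0.34 and the control pools between -0.12 and 0.06. In the hnRNP group the AQUOLIVE® pools lay at -0.36, -0.26 and -0.23 and the control pools between -0.03 and 0.15. Each of these group medians rests on 6 or 7 probes, and their signs did not hold after normexp background correction, where the medians were -0.04 for U1 and U2 and 0.001 for hnRNP. Without control pool 3 the hnRNP median was -0.18. The median of the SR group turned to -0.09 after normexp and to -0.16 without control pool 3. That of the RBM group had no stable sign: it was -0.06 after 75th percentile scaling, -0.04 after loess against the mean of all 6 arrays, -0.16 among probes well above background on all 6 arrays and -0.16 without control pool 2.

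**Figure D4:**
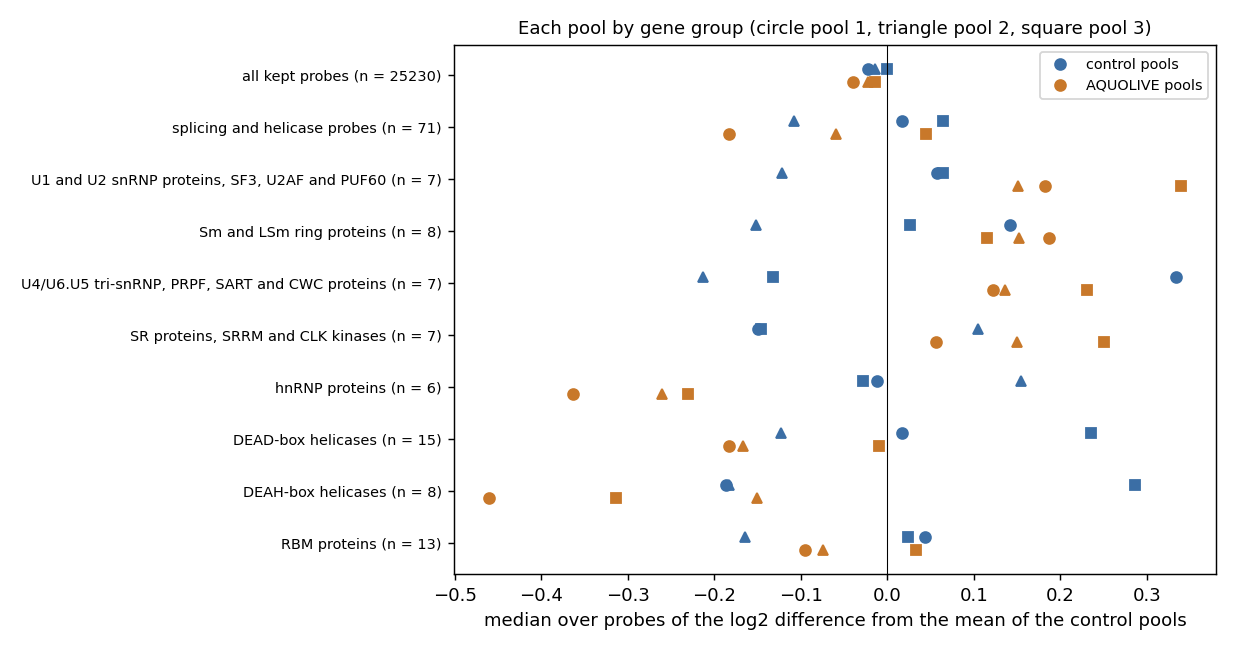
Median over the probes of a group of the log2 difference from the mean of the 3 control pools (x axis), for each pool (marker shape) and diet (color); n is the number of probes measured on every array. The 3 AQUOLIVE® pools lie right of the control pools for U1 and U2 proteins and left of them for hnRNP proteins, and the diets are interleaved over the whole set.

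Of the set's 80 genes 9 were not kept, because fewer than 3 arrays showed them well above background. These were ddx4, a germ cell helicase known as vasa, and ddx17, ddx19a, ddx49, dhx32b, rbm7, rbm15b, rbm33a and rbm44. Values of these genes were taken from the loess normalization run with no filter on dim probes, and not from the fit reported above. The germ cell gene measured 2.44 to 3.66 in the control pools and 3.00 to 3.76 in the AQUOLIVE® pools. For ddx19a, AQUOLIVE® pool 1 reached 7.25 where the other 5 arrays measured 2.69 to 3.44, a signal seen in a single pool. For the remaining 8 genes the highest value on any array was 4.58.

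Splicing genes outside the symbols of the set gave a similar picture. Of a list of 120 gene names of spliceosome, snRNP assembly and splicing regulation, 51 had a probe by symbol, on 52 genes, and 50 genes were kept. The mean was higher in the AQUOLIVE® pools for 27 and lower for 23 (median log2 FC 0.03). At an unadjusted p under 0.05, 3 were higher and 1 lower, together 8.0% beside 18.1% of all kept probes, and none passed limma's adjusted threshold. The higher ones were smu1a, a spliceosome protein, with a log2 FC of 0.66 and limma adjusted p of 0.228, the polypyrimidine tract binding protein ptbp2a, with 0.62 and 0.228, and gemin6 of the SMN complex that assembles snRNPs, with 0.58 and 0.267. For gemin6 the control pools measured 8.38, 7.96 and 8.57 and the AQUOLIVE® pools 8.88, 8.86 and 8.92. The lower one was cdc40, a second-step splicing factor, at 10.96, 11.20 and 12.07 in the control pools and 10.51, 10.69 and 10.58 in the AQUOLIVE® pools (log2 FC -0.82, limma adjusted p = 0.269). The diets did not overlap for smu1a, ptbp2a, gemin6 or cdc40. The gene copy ptbp2b had the opposite sign to ptbp2a, with a log2 FC of -0.66 and limma adjusted p of 0.356. It was dim, well above background on 2 of the 3 arrays of each diet. Its control pools measured 6.01, 4.82 and 5.31 and its AQUOLIVE® pools 4.48, 5.01 and 4.67, so the diets overlapped. The unadjusted limma p of cdc40 was 0.083 after 75th percentile scaling and 0.064 after quantile normalization. It was 0.044 after loess against the mean of all 6 arrays and 0.018 after normexp background correction. Over the settings tried, the highest unadjusted limma p was 0.364 for smu1a, 0.177 for ptbp2a, 0.122 for gemin6 and 0.616 for cdc40.

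The arrays and the tissue set limits on all of these values. The share of spots well above background was 42.5% to 61.0% in the control arrays and 54.2% to 76.0% in the AQUOLIVE® arrays, lowest in control pool 3. The slope of the spike-in controls was 0.81 to 0.89 in the control arrays and above 1 in the AQUOLIVE® arrays. Each array was on a slide of its own, the control arrays on 1 run of slide numbers and the AQUOLIVE® arrays on another, so slide run and diet cannot be told apart. Markers of blood-forming and lymphoid cells were present, with all 5 B cell, 4 T cell and 5 erythroid genes that had a probe kept, 7 of 8 neutrophil genes and 4 of 5 macrophage genes. Markers of the steroid-producing interrenal cells were kept for 4 of 5 genes without cyp17a1, those of chromaffin cells for 2 of 4 without chga and chgb, and those of renal tubule for 3 of 8. Of the B cell markers 1 was higher and 4 lower in the AQUOLIVE® pools, and the 4 T cell markers were higher by the brighter probe of each gene, with none of the 9 at an unadjusted p under 0.05. A second, dimmer cd3e probe was lower, with a log2 FC of -1.12. The summed linear signal of the B cell markers was 18828 to 25015 in the control pools and 17652 to 19998 in the AQUOLIVE® pools, both by the brighter probe of each gene. That of the T cell markers was 985, 889 and 312.4 in the control pools and 976 to 1081 in the AQUOLIVE® pools, so the low end came from control pool 3. At an unadjusted p under 0.05, neutrophil markers had 1 higher and 1 lower, macrophage and chromaffin markers 1 lower each and erythroid markers 1 higher, and no marker passed limma's adjusted threshold. Their part in the values of the splicing and helicase genes was not tested.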

How the data were processed

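RNA of 6 HK pools, 3 per diet, was hybridized to one-color arrays. The authors extracted one intensity per spot with Feature Extraction software and deposited it with flags for outliers and background. The authors' second deposited value, a log2 per spot, was the log2 of the signal after background subtraction (tolerance 1e-08), with no scaling. Here the processed signal was log2-transformed in R 4.3.3 without control spots, and outlier-marked spots counted as missing. A probe was kept if at least 3 of the 6 arrays showed it well above background, which left 25826 of 42386. A robust loess curve (limma's loessFit, span 0.3, 4 iterations) against mean intensity was subtracted from the log2 ratio of every array to the control mean, and replicate spots were averaged per probe. Testing used limma 3.58.1, with lmFit and eBayes, two-sided, Benjamini-Hochberg over all kept probes and a threshold of 0.05. The code was tested on simulated data. Array number limits the precision.

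Symbols came from the RefSeq gene table of Ssal_v3.1: 25641 probes were found in it, 17486 of them with a locus number and 8155 with a symbol. Of salmon gene copies with near-identical sequence, probes may read more than 1. The genes named in the text are core genes listed by name, the smallest p of each group, and genes past an unadjusted p without overlap; other names were added after values were seen. The members, gene lists, marker lists and tests were chosen with earlier results of these data known, and the roles were assigned from general knowledge. The core genes were a list of 65 names, of which only 21 had a probe by symbol, on 22 genes. All 22 were kept, with 10 higher, 12 lower and none at an unadjusted limma p under 0.05. The other core names were not measured by symbol, and no probe of the set had a symbol starting with u2af or puf60.

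Alternatives were 75th percentile scaling, quantile normalization, loess against all 6 arrays, normexp background correction (offset 50), the deposited log2 values, other filters, 1 probe per gene, a replicate block, the methods' t-test, and leaving out each pool. Normexp was run on the median spot signal in place of the mean spot signal that had been planned. A background of probes with a symbol was added after seeing the data.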

Additional observations from a re-analysis of the deposited data

How the results depend on the processing

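No probe of the set passed limma's adjusted threshold under any setting tried, and the counts at an unadjusted p under 0.05 stayed small. The count of higher probes, 1 as reported, was 2 after loess against the mean of all 6 arrays (lsm10 and rbm8a; 9.48% of all kept probes), 2 with no filter on dim probes (lsm10 and rbm15b; 7.63% of all probes), 0 after normexp background correction (6.92% of all kept probes) and 5 in the deposited log2 values (12.9% of all kept probes), where lsm10 was not among them. The rbm15b probe was well above background on no array. The methods' t-test gave 4 higher probes, and 0 after Benjamini-Hochberg adjustment. The count of lower probes, 1 as reported, was 0 after normexp (3.20% of all kept probes) and 0 in the deposited values (0.17%), 3 among probes well above background on all 6 arrays (ddx46, ddx56 and hnrnpul1l; 9.15% of all such probes), and 2 with outlier spots kept (ddx56 and dhx9; 8.65% of all kept probes). The methods' t-test gave 2 lower probes, 0 with an absolute log2 FC of at least 0.8 and 0 after Benjamini-Hochberg adjustment. When one pool was left out at a time, 0 to 3 probes were higher, beside 5.10% to 11.4% of all kept probes. In the same fits 0 to 3 were lower, beside 3.90% to 8.85% of all kept probes. The count was 0 higher without AQUOLIVE® pool 2 or pool 3, and 0 lower without AQUOLIVE® pool 1 or pool 3. With one pool left out at a time, the median log2 FC ranged from -0.109, without control pool 2, to 0.017, without AQUOLIVE® pool 1. It was 0.05 with no filter on dim probes and 0.03 among probes well above background on all 6 arrays. In the deposited values, which carry no scaling, it was 0.77, where all kept probes had a median of 0.98. There the log2 FC of cdc40 was 0.24, which lay below that median as well. The cause of the shift of the median was not tested.

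The deviations of pools with the same number had correlations of 0.21, -0.06 and 0.03 between the diets. Those of pools with different numbers ran from -0.23 to 0.19. With 3 pools per diet these values cannot decide whether the numbers pair the pools. A fit with the replicate number as a block gave 1 higher probe, beside 9.10% of all kept probes. It gave 0 lower, losing ddx56, beside 7.01% of all kept probes. After adjustment 0 were left, in the set and over all kept probes. Slide and slide run could not be fitted, since every array has its own slide and each diet its own run. Dim probes limit the precision, lsm10 among them.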

Other observations

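The split of the AQUOLIVE® pools seen for ddx56 was also measured for 2 of the 50 splicing genes outside the set, and both were named after their values were seen. The gene clns1a, whose product loads Sm proteins for snRNP assembly, measured 9.05, 7.94 and 8.73 in the control pools, taken in order, compared with 3.08, 9.25 and 2.90 under AQUOLIVE®. The splicing regulator tra2b measured 12.82, 11.98 and 12.48 in the control pools and 9.54, 12.94 and 9.43 in the AQUOLIVE® pools. In both genes AQUOLIVE® pools 1 and 3 were low and pool 2 was above every control pool, so the diets overlapped. The log2 FC was -3.50 for clns1a (95% interval -7.60 to 0.60, limma adjusted p = 0.322) and -1.79 for tra2b (95% interval -4.11 to 0.52, limma adjusted p = 0.354). The clns1a probe was well above background on all 3 control arrays and on AQUOLIVE® pool 2 alone among the AQUOLIVE® arrays.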
